A study of Mus musculus with 14 samples.

Results

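The comparison set 2 lines of hypoxia-induced cells resembling embryonic germ cells, named hiEGL1 and hiEGL2, against 2 lines of epiblast stem cells, named EpiT9 and EpiE3. Arrays were taken by sample title: 2 arrays of each hiEGL line and 1 array of each epiblast line, so 6 of the 14 arrays of the series. Each line was given the same weight, so the comparison is the mean of the 2 hiEGL lines minus the mean of the 2 epiblast stem cell (EpiSC) lines. The study profiled mouse gene expression on Illumina bead arrays, and by its title it concerns low oxygen, stabilised HIF1 alpha, Oct4 and the gain of pluripotency by primordial germ cells. All cells carry a C57BL strain background. The hiEGL arrays are labelled as grown in hypoxia, and the EpiT9, EpiE3, embryonic germ cell (EG, 2 arrays) and male and female embryonic stem cell (ESCm and ESCf, 2 arrays each) arrays as not grown in hypoxia. The ESCm and ESCf arrays are embryonic stem cells (ESC) by title and design, while their cell type label reads embryonic germ cells. Cell origin, oxygen and the individual line cannot be told apart in hiEGL against EpiSC. The labels do not say that arrays of 1 line came from separate cultures, so the spread behind the p-values may be technical. That spread is pooled within the groups of all 14 arrays, those titled PGC11.5 included. It can therefore differ from the spread of the compared arrays. For Medag, described below, the SD was 0.11 in hiEGL, 0.05 in EpiSC and 1.18 in PGC11.5. The small number of arrays limits the precision.

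Epiblast stem cells are derived from the post-implantation epiblast and hold a primed state of pluripotency that depends on Nodal or activin and FGF signals, with Otx2 and Fgf5 among its best known marks. Embryonic germ cells come from cultured primordial germ cells and are close to naive embryonic stem cells, which rely on LIF and express Esrrb, Klf4 and Dppa3. In low oxygen the alpha subunits of the hypoxia-inducible factors escape hydroxylation and degradation, pair with Arnt and raise genes of pH control, collagen modification, vessel growth and glycolysis.

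The hiEGL and EpiSC arrays differed in how many probes they detected. A probe counted as detected where the detection p-value in the deposited table was under 0.01. The hiEGL1 arrays detected 7992 and 8457 of the 25697 probes and the hiEGL2 arrays 7674 and 7820, against 11675 for EpiT9 and 10794 for EpiE3. The EG arrays detected 8194 and 8385 probes, and the 4 ESC arrays between 9938 and 10748. The PGC11.5 arrays detected 7651 and 8781. Of the probes naming 1 gene, 2756 were detected on both EpiSC arrays and on no hiEGL array, and 2213 of these on no EG array either. Of those 2213, 1226 were detected on all 4 ESC arrays. The reverse, detection on all 4 hiEGL arrays and on no EpiSC array, held for 391 probes. Of these, 180 were detected on both EG arrays, and 64 on both EG arrays and no ESC array. In the number of probes detected the hiEGL arrays sat with the EG arrays, and the EpiSC arrays with the ESC arrays. Probe by probe this division held only in part. The part of this division in the differences below was not tested. For that reason many results are given with a second contrast, the hiEGL minus EpiSC difference less the EG minus ESC difference. It is called here the difference beyond EG against ESC. Genes given without it show their hiEGL against EpiSC difference only. Any difference between the EG and ESC cells themselves also enters this contrast and can raise or lower it. EG and ESC are both grown without hypoxia and lie on opposite sides of the division, EG with hiEGL and ESC with EpiSC.

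Among 9054 genes detected on at least 2 of the 14 arrays, 7119 passed an adjusted p under 0.05 in hiEGL against EpiSC (limma, Benjamini-Hochberg), which is 78.6% of the genes tested. Of these, 3918 were higher in hiEGL (43.3%) and 3201 lower (35.4%). The median log2 difference over all genes was 0.14, and 0.38 with median scaling in place of quantile normalization. Calls of at least 2-fold numbered 2693 higher (29.7%) and 1999 lower (22.1%). The groups did not overlap, all hiEGL arrays lying on 1 side of both EpiSC arrays, for 6873 genes (75.9%). A call beyond EG against ESC was made for 5612 genes (62.0%; 28.3% higher and 33.7% lower), of which 3991 had the same direction as in hiEGL against EpiSC (44.1%; 21.9% higher and 22.2% lower), while 742 called genes had the opposite one. With most genes called, a gene's call alone says little, and its size, its second probe and its value beyond EG against ESC carry more. The last is read within the limit given above.

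Probes of 1 gene often moved apart. Of 2370 genes with several detected probes, 1096 had at least 2 called probes that all agreed in direction, and 580 had called probes in both directions, 34.6% of the sum of these classes. The disagreeing share beyond EG against ESC was 23.4%, with 860 genes agreeing and 263 disagreeing. Between EpiE3 and EpiT9, on the same side of the division, 77 genes agreed and 1 disagreed, and between hiEGL2 and hiEGL1 271 agreed and 23 disagreed. Sall4, a zinc finger factor of pluripotent cells, had 1 probe at 12.34, 12.25, 12.12 and 12.11 on the hiEGL arrays against 11.66 and 11.64 on the EpiSC arrays, higher by 0.56 on the log2 scale. Another probe was at 5.69, 5.50, 5.81 and 5.45 against 7.97 and 9.51, a log2 difference of -3.13. The last of its 3 detected probes was not called. The 2 called probes gave the gene opposite directions, and Sall4 is therefore given no direction here.

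**Figure D1:**
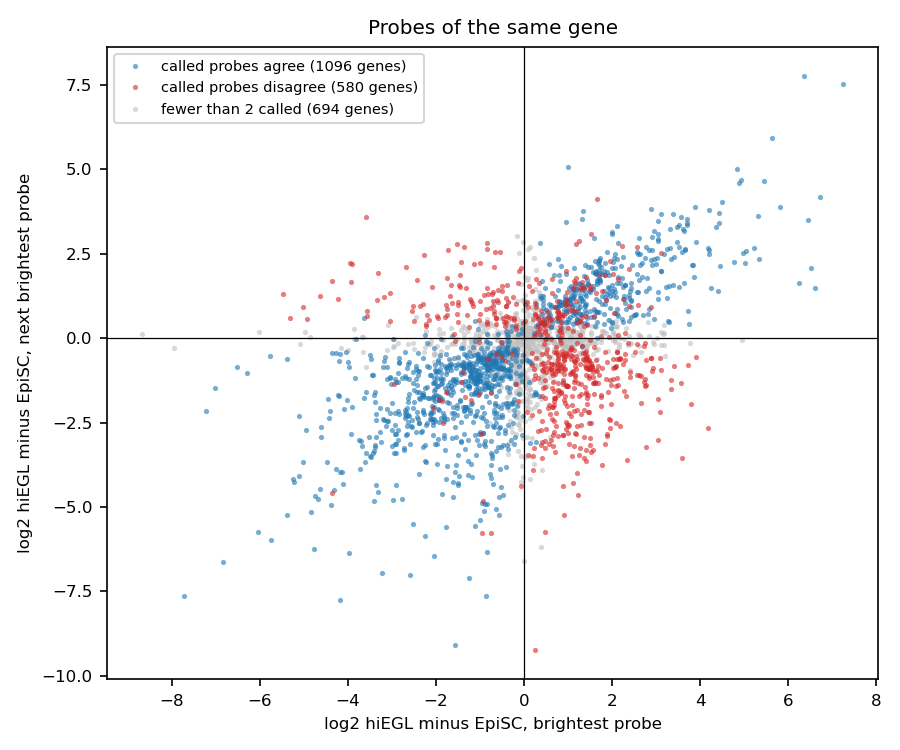
Log2 difference of hiEGL minus EpiSC for the brightest probe of each gene with several detected probes (x axis) against its next brightest probe (y axis), 1 point a gene. Genes whose called probes agree (1096) lie mostly in the lower left and upper right, and those whose called probes disagree (580) lie mostly in the other 2 quadrants.

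Among the 1096 agreeing genes, 365 were higher and 731 lower by their probes, a median log2 difference of -0.75 by the brightest probe. Arrays that did not overlap and the same call beyond EG against ESC were met by 626 of them, 196 higher and 430 lower. The 10 largest rises and 10 largest falls among these are described next. Levels are log2 normalized signals, listed as the 2 hiEGL1 arrays, the 2 hiEGL2 arrays, EpiT9 and EpiE3. Where no array of the dimmer group detected the probe, the fold is a lower limit: the mean of the brighter group is set over a floor taken on each dim array, which is the probe's own signal or the dimmest detected signal, whichever is higher.

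The largest rise was in Medag, a gene linked to fat cell formation. It measured 11.85, 11.83, 12.06 and 11.98 on the hiEGL arrays against 4.65 and 4.72 on the EpiSC arrays, at least 126-fold higher (log2 7.24 ± 0.36 SE, adjusted p = 2.32e-08, limma). Its second probe rose by 7.52. All 4 hiEGL arrays were close together and far above both EpiSC arrays, where the gene was not detected. The water channel Aqp1 read 10.94 and 10.83 in hiEGL1 and 11.62 and 11.59 in hiEGL2, against 4.45 in EpiT9 and 4.59 in EpiE3, at least 78.7-fold higher. Matrix genes on this list were as even across the hiEGL lines: Ecm1, a secreted matrix protein, was at 12.06, 11.98, 12.01 and 11.98 against 5.36 and 5.42 (97.9-fold). Ogn, a small leucine-rich proteoglycan, was at least 60.8-fold higher and Col6a1, a collagen VI chain, 81.7-fold higher. Lmna, which encodes the A-type nuclear lamins, averaged 12.09 ± 0.31 in hiEGL (SD, n = 4) and 6.28 ± 0.45 in EpiSC (SD, n = 2), with 5 of 5 probes higher. Rassf4, a Ras-association domain protein, was higher by 5.44 on the log2 scale. Beyond EG against ESC the differences were 5.98 for Medag, 5.10 for Aqp1, 5.33 for Ecm1, 4.91 for Ogn, 4.31 for Col6a1, 4.20 for Lmna and 4.06 for Rassf4.

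A pair of the rises were germ cell or pluripotency genes. Dppa4, a chromatin protein of pluripotent and germ cells, measured 12.98, 12.98, 12.34 and 12.23 in hiEGL against 6.30 and 5.93 in EpiSC, 91.7-fold higher (log2 6.52 ± 0.05 SE, adjusted p = 1.85e-13, limma) and 5.42 beyond EG against ESC. Of its 3 detected probes 2 were called higher. Its log2 difference ran from 2.92 to 6.81 over the main fit and the alternatives. Tfap2c, the AP-2 gamma factor needed for primordial germ cell specification, measured 13.46, 13.35, 13.10 and 13.08 against 7.90 and 6.12. Its log2 difference was 6.23 ± 0.06 (SE), 5.34 without EpiE3 and 7.12 without EpiT9, and its other 2 probes rose by 3.26 and 1.64. Both genes were bright on every hiEGL array and dim in both EpiSC lines, with EpiE3 the dimmer. Ifi27, an interferon-induced gene, differed by 5.63 but by only 0.74 beyond EG against ESC (adjusted p = 0.0297, limma).

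Most of the 10 largest falls were genes that nearly every cell uses. Snrpd1, a core protein of the spliceosome, was at 4.33, 4.42, 4.48 and 4.82 on the hiEGL arrays against 12.09 and 12.39 on the EpiSC arrays, at least 78.7-fold lower. Its difference beyond EG against ESC was -0.61 (adjusted p = 0.00907, limma). The same held for the RNA-binding protein Hnrnpa1 (at least 54.9-fold lower, log2 -1.02 beyond EG against ESC), the small nucleolar RNP protein Nhp2 (at least 71.8-fold, -1.38), the histone chaperone Rbbp7 (at least 45.1-fold, -1.33), the mitochondrial carrier homologue Mtch2 (at least 30.0-fold, -1.26), the SUMO gene Sumo3 (at least 24.7-fold, -0.73) and the inner nuclear membrane protein emerin, Emd (at least 14.3-fold, -0.54). In each of these the EG arrays lay nearer to the hiEGL arrays and the ESC arrays nearer to the EpiSC arrays. The PGC11.5 arrays also lay nearer to the EpiSC arrays, at 12.31 and 12.45 for Snrpd1. The log2 difference of Mtch2 ran from -8.11 to -2.79 over the main fit and the alternatives. Gnas, the stimulatory G protein alpha subunit, was at least 21-fold lower and kept a log2 difference of -2.74 beyond EG against ESC.

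The falls also included Pou5f1, which encodes Oct4, the central factor of pluripotency. It measured 6.85, 6.83, 5.84 and 6.24 in hiEGL against 12.02 and 12.93 in EpiSC, a log2 difference of -6.04 ± 0.11 (SE, adjusted p = 3.09e-11, limma). Its other probe was at 6.39, 6.48, 6.65 and 6.55 against 11.78 and 12.71, a difference of -5.73. Both probes were dim in all 4 hiEGL arrays, and the brightest was detected on 3 of them. The EG arrays were also dim for this gene and the ESC arrays bright, and beyond EG against ESC the 2 probes differed by -1.44 and -1.0. Dnmt3b, the de novo DNA methyltransferase typical of primed epiblast, fell to 8.40, 8.26, 7.66 and 7.66 in hiEGL, against 12.57 and 13.64 in EpiSC. Of its log2 difference of -5.11, -3.66 remained beyond EG against ESC (adjusted p = 1.23e-08, limma), and its other probe differed by -2.30 and -1.58.

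**Figure D2:**
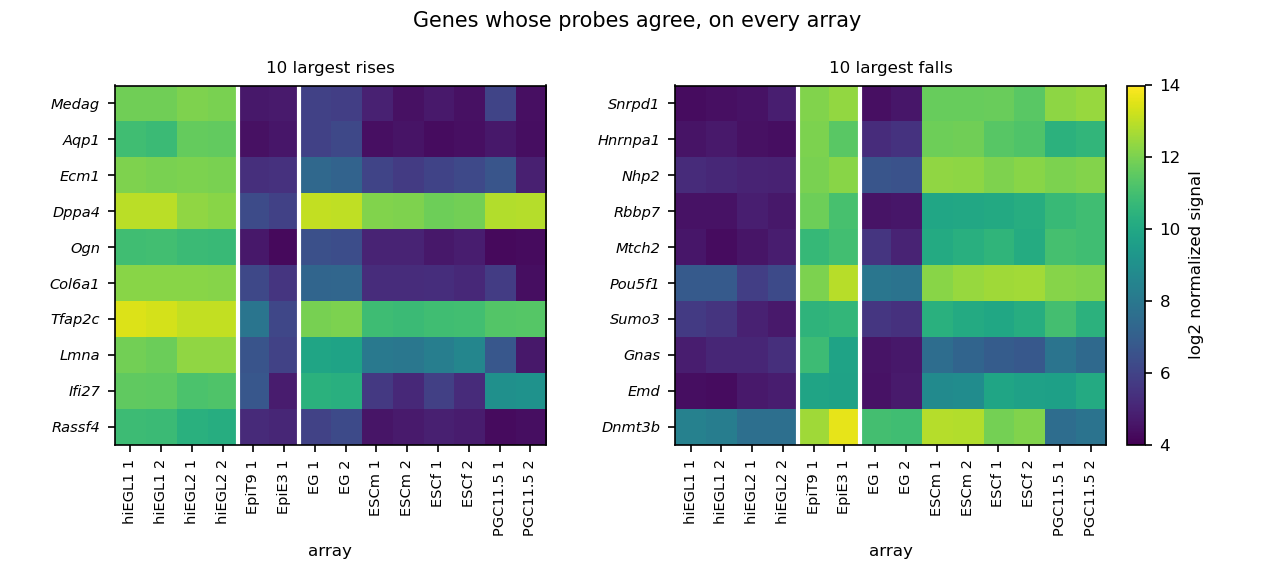
Log2 normalized signal (colour) on all 14 arrays (columns, hiEGL left, then EpiSC, then the others) for the 10 largest rises and 10 largest falls among genes whose probes agree. In the right panel the EG columns resemble the hiEGL columns for Snrpd1, Hnrnpa1, Rbbp7 and Emd, and the ESC columns resemble the EpiSC columns.

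Most tested marks of the primed state were lower in hiEGL. Of 30 listed primed epiblast genes 23 passed the detection filter, and 2 of these were higher and 19 lower, with a median log2 difference of -3.04 against 0.14 over all genes tested. Beyond EG against ESC the median was -2.33 against -0.08 over all genes, and 17 genes were lower in both contrasts. A gene could pass the filter through the EpiSC arrays alone, or through the hiEGL arrays alone, and such a gene was bound to differ. Counts of this kind, here and for every list below, therefore describe the tested genes and support no statement about the lists. They were taken from the same contrast in which 43.3% of all genes tested were higher and 35.4% lower. In both contrasts, 21.9% of all genes tested were called higher and 22.2% lower.

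Otx2, the homeobox factor that drives the primed state, measured 4.56, 4.34, 4.38 and 4.37 on the hiEGL arrays against 10.43 and 10.66 on the EpiSC arrays, at least 24.3-fold lower (log2 -6.13 ± 0.29 SE, adjusted p = 1.68e-08, limma). Fgf5, the classic epiblast ligand, was at 4.34, 4.45, 4.34 and 4.58 against 8.47 in EpiT9 and 9.96 in EpiE3, at least 9.68-fold lower. Both genes were undetected on all 4 hiEGL arrays, and both kept their direction beyond EG against ESC, where Otx2 differed by -5.46 and Fgf5 by -6.75. In hiEGL against EpiSC Fgf5 differed by -4.79, and its EG mean of 6.60 above an ESC mean of 4.64 enlarges the second value. Fgf8, a ligand of gastrulation, was at least 10.8-fold lower and Car4, a carbonic anhydrase, at least 14.4-fold lower. Wnt8a, a Wnt ligand of the early posterior epiblast, was at 4.43, 4.40, 4.45 and 4.37 against 9.59 and 8.49, at least 8.55-fold lower, with 3 probes lower. Pou3f1, the POU factor known as Oct6, differed between the hiEGL lines: it was at 6.12 and 6.42 in hiEGL1 and 4.58 and 4.60 in hiEGL2, against 9.19 and 9.01 in EpiSC (log2 -3.67, adjusted p = 1.5e-05, limma). Gsc, the organizer homeobox gene, was at least 4.10-fold lower.

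The 2 genes of this list that rose were Cdx2 and Evx1, homeobox genes of trophectoderm and posterior mesoderm. Cdx2 measured 6.95, 6.98, 7.62 and 7.67 in hiEGL against 5.70 and 4.45 in EpiSC (log2 2.23, adjusted p = 1.34e-07, limma) and differed by 3.04 beyond EG against ESC. Evx1 rose by 1.47, and its difference beyond EG against ESC, 0.64, did not pass the test (adjusted p = 0.134, limma). Sfrp2 and Sox17 were not called.

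Nodal signalling genes gave a mixed list, with Nodal and its inhibitors lower. Of 13 genes tested of 18 listed, 3 were higher and 8 lower (median -0.94, beyond EG against ESC -0.87). The shares were 23.1% and 61.5%, beside 43.3% and 35.4% over all genes tested. Nodal, the ligand itself, was at 4.97, 5.13, 5.45 and 5.56 in hiEGL against 9.18 and 9.56 in EpiSC, at least 10.8-fold lower, and differed by -1.59 beyond EG against ESC. Lefty1, a secreted Nodal inhibitor and direct Nodal target, was at 6.96, 6.94, 6.65 and 6.69 against 11.95 and 12.01 (log2 -5.17 ± 0.07 SE, adjusted p = 6.61e-12, limma). The related inhibitor Lefty2 was even across hiEGL, at 4.51, 4.65, 4.51 and 4.55, but uneven in EpiSC, at 10.29 in EpiT9 and 7.61 in EpiE3. Its log2 difference was -4.40, and -5.74 without EpiE3. Of the receptors and effectors, Acvr2b, a type II activin receptor, fell by 3.60 and Foxh1, the DNA-binding partner of Smad2, was at least 4.08-fold lower by probes that agreed. Smad3, by contrast, rose by 1.97, with 0.14 beyond EG against ESC (adjusted p = 0.58, limma). Tdgf1, the Nodal co-receptor, differed by -0.62, and by 0.05 without EpiE3.

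Among FGF and ERK pathway genes 15 of 18 were tested, of which 12 were lower and 3 not called (median -0.90, beyond EG against ESC -0.39). The shares were 80% lower and 0% higher, beside 35.4% and 43.3% over all genes tested. Without EpiT9 1 gene was higher. The ERK phosphatase Dusp6, which reports pathway activity, differed by -0.01 and was not called, and Dusp4 differed by -0.38, and by 0.06 without EpiT9. Wnt pathway genes split, with 5 of 15 tested higher and 8 lower (33.3% and 53.3%, beside 43.3% and 35.4% over all genes tested). Tcf7l1, the repressor that opposes naive genes, was lower at 8.30, 8.28, 9.02 and 8.98 in hiEGL against 11.24 and 11.31 in EpiSC (log2 -2.63, adjusted p = 1.04e-09, limma), by probes that agreed. The ligands Wnt6 and Wnt5a were higher: Wnt6 at 7.80, 7.69, 8.05 and 8.01 against 4.40 and 4.34, at least 7.67-fold, and Wnt5a by 3.11 on the log2 scale (2.25 without EpiE3, 3.96 without EpiT9).

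**Figure D3:**
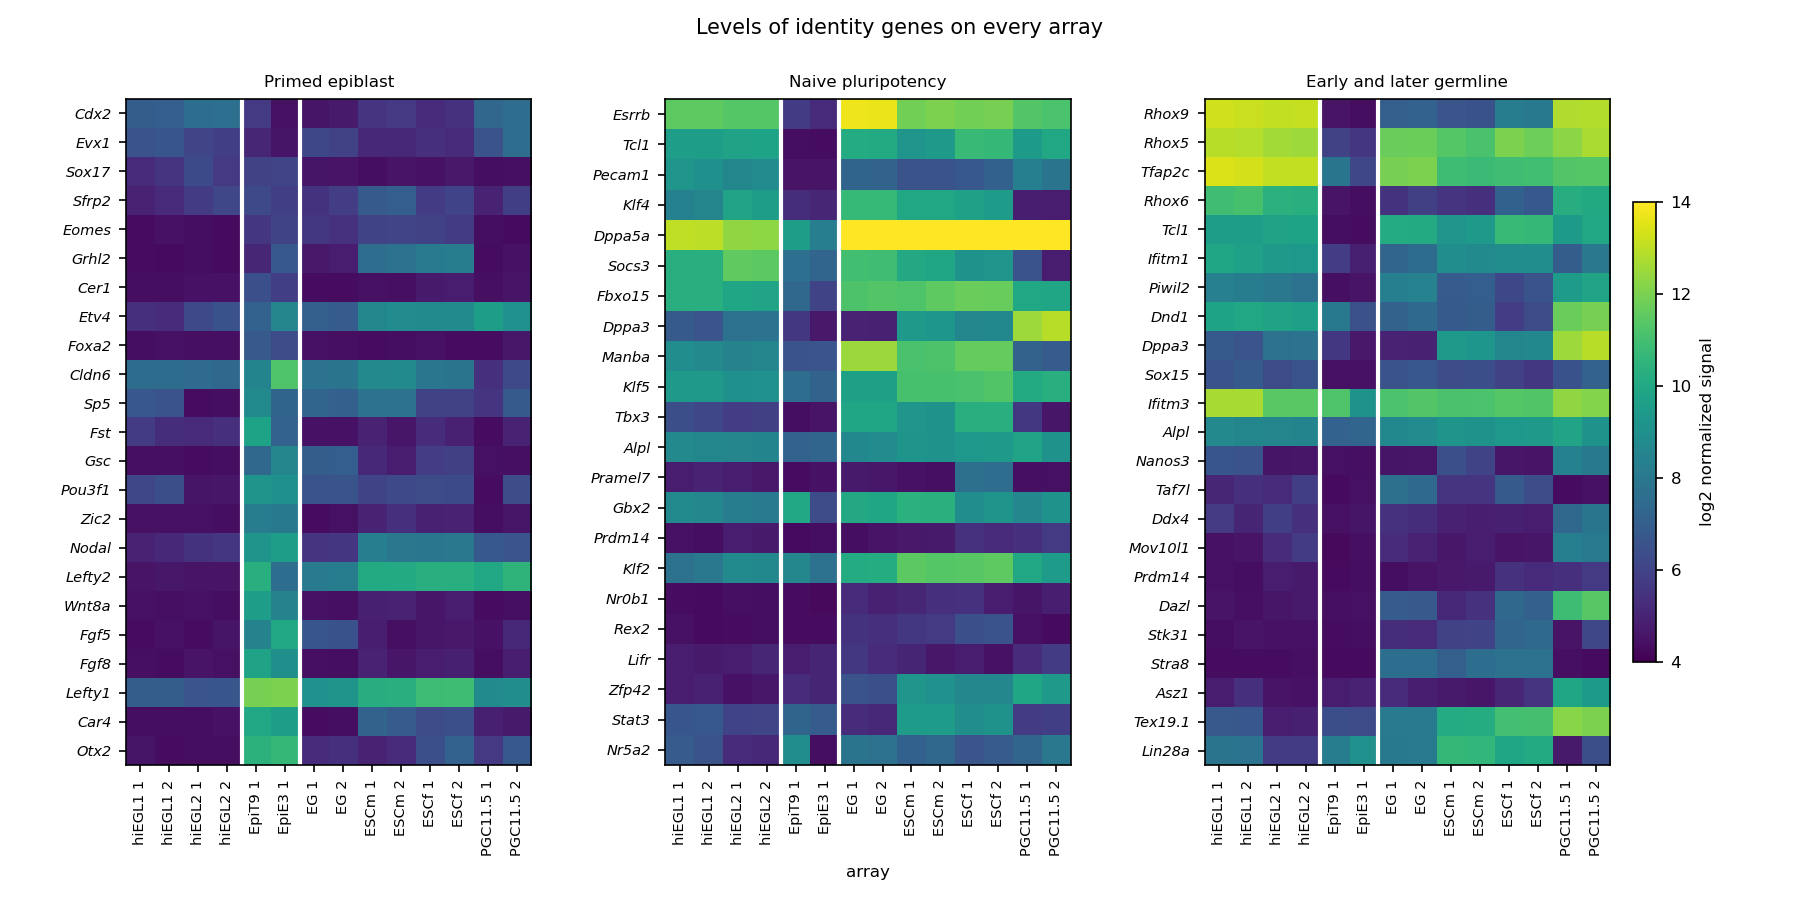
Log2 normalized signal (colour) of the tested primed, naive and germline list genes (rows) on all 14 arrays (columns, hiEGL left, then EpiSC, then the others). Otx2, Fgf8 and Wnt8a are bright in the 2 EpiSC columns and dark in the hiEGL columns, and Esrrb, Tcl1, Rhox9 and Tfap2c show the reverse.

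Among naive pluripotency genes that passed the filter, more were higher than lower in hiEGL. Of 26 listed genes 22 were tested, with 14 higher, 3 lower and 5 not called (median 1.49, beyond EG against ESC 1.92), and 13 were higher in both contrasts. The shares were 63.6% higher and 13.6% lower, beside 43.3% and 35.4% over all genes tested. Esrrb, an orphan nuclear receptor of the naive network, measured 11.52, 11.53, 11.37 and 11.38 in hiEGL against 5.78 and 5.20 in EpiSC (62.0-fold, log2 5.95 ± 0.07 SE, adjusted p = 1.21e-12, limma). Its difference beyond EG against ESC was 4.16. Tcl1, a co-activator of Akt kinase, was at 9.57, 9.61, 9.76 and 9.80 against 4.36 and 4.34, at least 26.7-fold higher, and Pecam1, a surface protein of naive and germ cells, at least 15.6-fold higher. All of these were tight across the 4 hiEGL arrays and well clear of both EpiSC lines. Dppa5a, an RNA-binding protein of naive cells, was at 13.06, 13.02, 12.33 and 12.30 against 9.62 and 8.28 (log2 3.72, 3.05 without EpiE3), and Klf5 was 3.59-fold higher. Klf4 had disagreeing probes: the brightest was at 8.41, 8.56, 9.85 and 9.58 against 5.32 and 5.08, a difference of 3.90, while another called probe, near the lower end of the scale on every array, differed by -0.57.

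Other members of the naive list did not follow. Klf2 was at 7.74, 8.02, 8.79 and 8.67 in hiEGL against 8.63 and 7.75 in EpiSC, overlapping ranges (log2 0.11, adjusted p = 0.443, limma). Stat3, the transcription factor downstream of LIF, fell by 0.67, although beyond EG against ESC it differed by 3.41. Zfp42, known as Rex1, was detected on no hiEGL array and lay at 4.79, 4.90, 4.47 and 4.66 against 5.26 and 5.05, a difference of -0.45 that was 0.25 under median scaling. Prdm14 and Nr0b1 were detected in neither group.

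Core pluripotency genes had no common direction. Of 15 tested, 5 were higher, 7 lower and 3 not called, with a median of -0.37 that became 0.25 with median scaling. The shares were 33.3% higher and 46.7% lower, beside 43.3% and 35.4% over all genes tested. Nanog, a central factor, measured 10.53, 10.34, 10.53 and 10.38 in hiEGL against 10.30 and 9.95 in EpiSC, a log2 difference of 0.32 (adjusted p = 0.00438, limma), and 0.15 without EpiE3 (adjusted p = 0.23, limma). Sox2 was at 5.89, 5.55, 5.68 and 6.13 against 5.51 and 5.32 by its brightest probe, which was not called, while its other probe differed by -3.91. Utf1, a chromatin-bound factor, was at 7.84, 7.89, 7.90 and 8.19 against 8.25 in EpiT9 and 10.69 in EpiE3 (log2 -1.51, -0.29 without EpiE3, and -0.75 beyond EG against ESC). Lin28a, the let-7 blocking protein, was at 7.85 and 7.80 in hiEGL1 and at 5.75 and 5.75 in hiEGL2, against 8.24 and 9.07. Its log2 difference was -1.87, and 0.40 beyond EG against ESC (adjusted p = 0.489, limma).

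Most tested genes of early germ cell specification were higher, as Tfap2c was. Of 12 tested of 14 listed, 9 were higher and 1 lower (median 1.99, beyond EG against ESC 1.88), and the 9 were higher in both contrasts. The shares were 75% and 8.33%, beside 43.3% and 35.4% over all genes tested. Ifitm1, an interferon-induced membrane protein of nascent germ cells, was at 9.91, 9.72, 9.42 and 9.34 in hiEGL against 5.83 and 4.87 in EpiSC (19-fold). Ifitm3, also called Fragilis, was at 12.69, 12.70, 11.43 and 11.45 against 11.23 and 9.14. For Ifitm3 the hiEGL2 arrays lay just above EpiT9, and the hiEGL1 arrays stood higher. Dppa3, known as Stella, was at 6.85, 6.64, 7.74 and 7.81 against 5.62 and 4.68 (4.32-fold, log2 2.11, adjusted p = 6.96e-08, limma). Beyond EG against ESC Dppa3 differed by 6.16, a value enlarged by an EG mean of 4.94, undetected, below an ESC mean of 8.99. Dnd1, an RNA-binding protein that germ cells need to survive, rose by 2.54 (1.74 without EpiE3). Nanos3, another germ cell survival gene, was detected in hiEGL1 only, at 6.66 and 6.56, with 4.57 and 4.62 in hiEGL2 and 4.45 and 4.43 in EpiSC.

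Later germline genes divided sharply by gene. Of 22 listed, 12 were tested, with 7 higher, 1 lower and 4 not called (median 0.82). The shares were 58.3% higher and 8.33% lower, beside 43.3% and 35.4% over all genes tested. The reproductive homeobox genes of the X chromosome gave large rises. Rhox9 measured 13.28, 13.20, 13.08 and 13.13 in hiEGL against 4.53 and 4.37 in EpiSC, at least 299-fold higher (log2 8.72 ± 0.08 SE, adjusted p = 3.25e-13, limma). Rhox5 was at 12.93, 12.87, 12.59 and 12.53 against 5.97 and 5.60 (123-fold), and Rhox6 was at least 52.8-fold higher. Their differences beyond EG against ESC, 9.0, 6.80 and 6.70, were about the same as in hiEGL against EpiSC. Piwil2, a piRNA-binding Argonaute protein, was at least 8.76-fold higher, at 8.35, 8.25, 7.99 and 7.72 against 4.42 and 4.52. Dazl, the RNA-binding protein of licensed germ cells, was instead undetected in both groups, at 4.54, 4.40, 4.62 and 4.71 against 4.40 and 4.45 (adjusted p = 0.484, limma). Of the 7 called higher, 3 were detected on no hiEGL or EpiSC array: Ddx4, the germ cell helicase Vasa (log2 0.99, adjusted p = 0.00216, limma), Taf7l (1.00, adjusted p = 0.00134) and Mov10l1 (0.65, adjusted p = 0.00359). Beyond EG against ESC these 3 differed by 0.47, -0.49 and 0.20, none of them called.

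Targets of the hypoxia-inducible factors outside glycolysis did not move one way. Of 35 listed, 29 were tested, with 15 higher, 13 lower and 1 not called, a median of 0.19 beside 0.14 over all genes tested. The shares were 51.7% higher and 44.8% lower, beside 43.3% and 35.4% over all genes tested. The median beyond EG against ESC was -0.34, with 10 genes higher and 10 lower in both contrasts. Promoters of 5 genes of this list and of the glycolysis list are shown: the HIF targets Car9 and P4ha1, which rose, the HIF target Ddit4, which fell, and Ldha and Slc2a1, which fell. Each is the 150 bases before a RefSeq transcription start (GRCm38.p6), 5′ to 3′ on the gene's strand, with the letters ACGTG or GCGTG, the core that the factors bind, in capitals wherever they occur on either strand.
Car9, chr4:43506876-43507025, plus strand: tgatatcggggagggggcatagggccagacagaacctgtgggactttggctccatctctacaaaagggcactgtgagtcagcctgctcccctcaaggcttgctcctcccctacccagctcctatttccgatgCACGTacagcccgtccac
P4ha1, chr10:59323146-59323295, plus strand: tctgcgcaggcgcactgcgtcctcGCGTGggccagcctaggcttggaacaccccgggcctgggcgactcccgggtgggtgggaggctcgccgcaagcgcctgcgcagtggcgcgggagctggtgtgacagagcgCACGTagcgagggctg
Ddit4, chr10:59951771-59951920, minus strand: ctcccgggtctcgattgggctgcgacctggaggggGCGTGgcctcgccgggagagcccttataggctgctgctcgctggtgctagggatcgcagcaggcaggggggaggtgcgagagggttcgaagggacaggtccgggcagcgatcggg
Ldha, chr7:46845654-46845803, plus strand: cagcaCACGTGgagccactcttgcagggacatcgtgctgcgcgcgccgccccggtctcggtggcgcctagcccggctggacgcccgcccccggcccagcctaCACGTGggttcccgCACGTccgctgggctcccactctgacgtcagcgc
Slc2a1, chr4:119108595-119108744, plus strand: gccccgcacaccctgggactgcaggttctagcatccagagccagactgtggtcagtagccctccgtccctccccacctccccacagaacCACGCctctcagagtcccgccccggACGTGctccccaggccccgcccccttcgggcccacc
The Ldha window shown has the most matches, 5, because its 2 palindromes CACGTG each count on both strands. Another Ldha window, chr7:46846932-46847081, is not shown and has 1 match, at -59. Car9 and Ddit4 have 1 match each and P4ha1 and Slc2a1 2, so genes that rose and genes that fell both carry the letters. The match nearest to the start is at position -18 in Car9 and at -115 in Ddit4.

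Over all 32851 RefSeq promoters of the table, 28.6% held a match in this window, and 42.7% of the promoters of genes tested. Promoters matched by symbol for 21 of the HIF targets, and 18 of their 29 promoters held one (62.1%): 10 of 15 for genes higher in hiEGL and 8 of 14 for genes lower in hiEGL. For 18 glycolysis genes, 19 of 28 promoters held one (67.9%), with 4 of 7 for higher genes, 14 of 19 for lower genes and the rest for genes that were not called. A match is a description of the letters and neither a binding site nor a cause. Vegfa has none in its 2 windows, which says only that these letters are not there.

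Several HIF targets rose. Car9, a carbonic anhydrase at the cell surface, measured 8.96 and 8.84 in hiEGL1 and 10.19 and 10.24 in hiEGL2, against 4.89 in EpiT9 and 4.97 in EpiE3 (24.7-fold, log2 4.62 ± 0.17 SE, adjusted p = 2.93e-09, limma). Both lines were far above EpiSC, and hiEGL2 was above hiEGL1. The collagen prolyl hydroxylase subunits P4ha1 and P4ha2 were higher by 2.76 and 4.78 on the log2 scale, P4ha1 at 8.59, 8.65, 8.83 and 8.87 against 6.43 and 5.53. Lox, a collagen cross-linking enzyme, averaged 10.94 ± 1.15 in hiEGL (SD, n = 4), brighter in hiEGL2, and 4.61 ± 0.03 in EpiSC (SD, n = 2), at least 63.7-fold higher. Vegfa, the vascular growth factor, was at 10.52, 10.61, 11.41 and 11.43 against 8.48 and 8.36 (5.96-fold), with a second probe that rose by 2.56. These differences beyond EG against ESC were 4.03 for Car9, 2.87 for P4ha1, 2.77 for P4ha2, 4.10 for Lox and 1.30 for Vegfa. Mxi1, a Myc antagonist, was 4.82-fold higher and Ndrg1 2.09-fold higher. The log2 difference of Ndrg1, 1.06, was 0.47 beyond EG against ESC.

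Other HIF targets fell. Ddit4, an inhibitor of mTORC1 also known as REDD1, was at 8.44, 8.47, 7.82 and 7.72 in hiEGL against 12.25 and 11.69 in EpiSC (log2 -3.86 ± 0.10 SE, adjusted p = 3.31e-10, limma), the opposite order to Car9. Igfbp3, a binding protein of insulin-like growth factors, was at least 6.23-fold lower. Fam162a, a mitochondrial gene of hypoxic cell death, fell to 9.51 ± 0.58 in hiEGL (SD, n = 4), against 11.81 ± 0.03 in EpiSC (SD, n = 2), and Tfrc, the transferrin receptor, fell by 1.08. Beyond EG against ESC the differences were -2.69 for Ddit4, -1.88 for Igfbp3, -1.23 for Fam162a and -2.69 for Tfrc.

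Most tested glycolysis genes were lower in hiEGL, the cells labelled as grown in hypoxia. Of 23 listed, 19 were tested, with 4 higher, 13 lower and 2 not called (median -0.99, beyond EG against ESC -0.88), and 9 were lower in both contrasts. The shares were 21.1% higher and 68.4% lower, beside 43.3% and 35.4% over all genes tested. Ldha, lactate dehydrogenase A, measured 11.22 and 11.18 in hiEGL1 and 12.41 and 12.45 in hiEGL2, against 13.97 and 13.92 in EpiSC (log2 -2.13 ± 0.15 SE, adjusted p = 2.7e-07, limma). Slc2a1, the glucose transporter GLUT1, was at 11.01, 11.02, 11.30 and 11.37 against 13.39 and 12.77 (3.74-fold lower, adjusted p = 1.98e-09, limma). For both genes every hiEGL array was below both EpiSC arrays, and hiEGL2 stood nearer to EpiSC than hiEGL1. Pkm, pyruvate kinase, fell by 1.25, Aldoc, an aldolase, by 3.23 and Gapdh by 0.38. Pdk1, the kinase that holds pyruvate out of mitochondria, was at 7.76 and 7.80 in hiEGL1 but 9.34 and 9.18 in hiEGL2, against 9.56 and 9.46.

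The exceptions were a pair of enzymes with large rises. Eno2, the enolase best known from neurons, was at 11.74, 11.57, 12.64 and 12.83 in hiEGL against 6.65 and 7.46 in EpiSC (35.3-fold), although 1.60 of its log2 difference of 5.14 remained beyond EG against ESC. Pfkfb4, which makes the allosteric activator of phosphofructokinase, was 14.8-fold higher. Hk2, the inducible hexokinase, rose by 0.78 but differed by -0.78 beyond EG against ESC. Set against each other, hiEGL2 was higher than hiEGL1 for 8 of the 19 glycolysis genes, with the rest not called (limma, adjusted p under 0.05), and higher for 15 and lower for 2 of the 29 HIF targets, where 13.9% of all genes tested were higher in hiEGL2 and 16% lower.

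**Figure D4:**
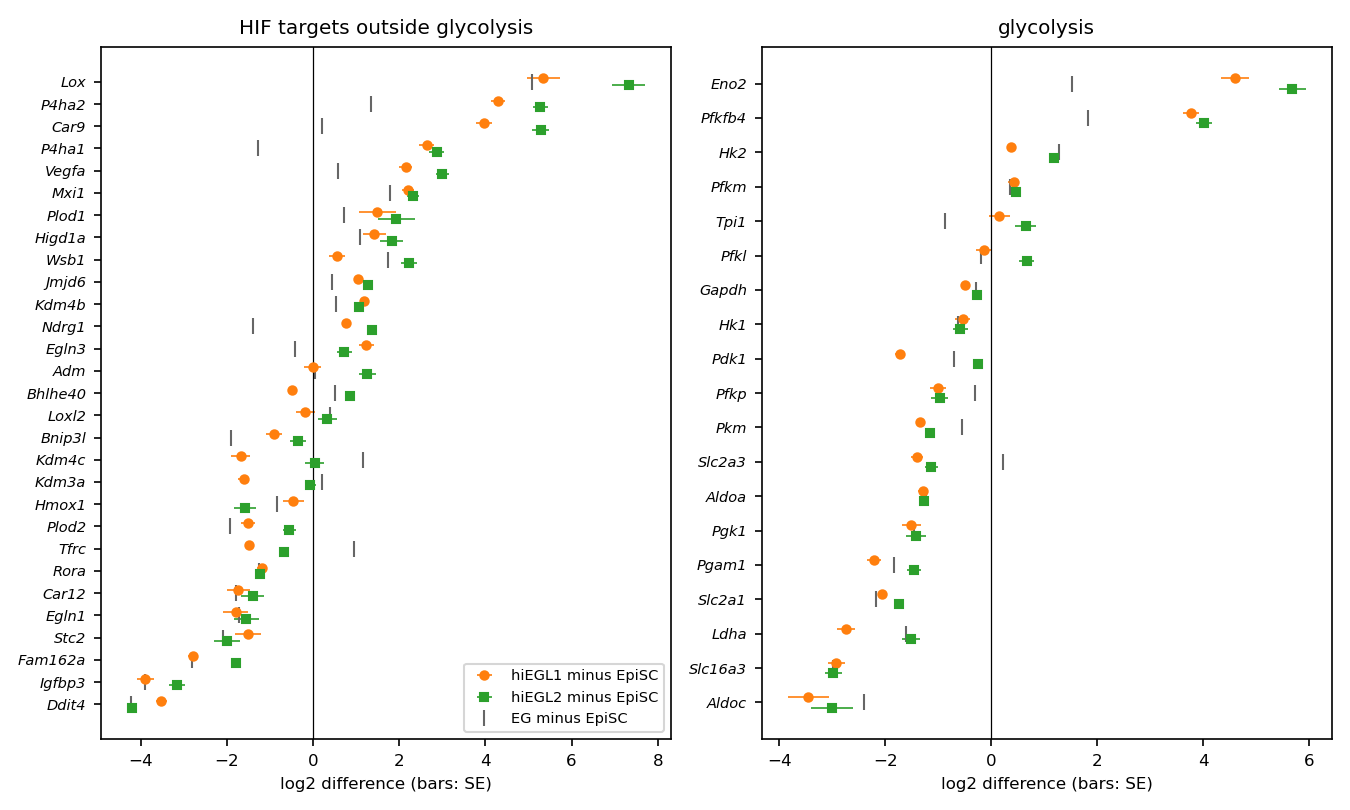
Log2 difference from the EpiSC mean (x axis) for hiEGL1, hiEGL2 (points, bars are SE) and EG (ticks) for each tested HIF target (left) and glycolysis gene (right). Lox, P4ha2, Car9 and Eno2 lie far right of 0 and Ddit4, Igfbp3, Ldha and Aldoc left of 0 in both hiEGL lines.

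Of the pathway's own components 7 of 10 were tested, with 3 higher and 3 lower (42.9% each, beside 43.3% and 35.4% over all genes tested). Hif1a, the alpha subunit, was detected on both EpiSC arrays at 6.46 and 5.97 and on no hiEGL array, where it was at 4.43, 4.36, 4.29 and 4.56, at least 1.21-fold lower. Beyond EG against ESC it differed by 0.35 (adjusted p = 0.226, limma), and transcript level does not measure protein, the level at which this subunit is mainly controlled. Epas1, the HIF2 alpha subunit, was detected on no array of either group. Vhl, which marks hydroxylated alpha subunits for degradation, was higher in hiEGL at 7.25, 7.30, 7.78 and 7.65 against 5.01 and 4.87 (5.88-fold, and 2.30 on the log2 scale beyond EG against ESC).

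Tested nuclear genes of oxidative phosphorylation were lower more often than higher. Of 50 listed, 45 were tested, with 10 higher, 30 lower and 5 not called. The shares were 22.2% higher and 66.7% lower, beside 43.3% and 35.4% over all genes tested. The median was -0.81, beyond EG against ESC -0.35, and 5 were higher and 19 lower in both contrasts while 8 were opposite. Uqcrh, a subunit of complex III, was at 5.45, 5.59, 4.99 and 5.85 in hiEGL against 12.30 and 12.37 in EpiSC, at least 84.0-fold lower, yet differed by -0.48 beyond EG against ESC (adjusted p = 0.151, limma). Cox5a, a subunit of cytochrome c oxidase, was at 8.88, 8.87, 9.57 and 9.48 against 12.19 and 12.45 (8.69-fold lower) and kept -1.90 beyond EG against ESC. Ndufc1, of complex I, was 32.3-fold lower by probes that agreed and kept -1.55. Cox4i1, another subunit of cytochrome c oxidase, was instead at 14.09, 14.09, 13.69 and 13.61 against 12.20 and 12.35, 3.01-fold higher, and Atp5a1, of the ATP synthase, rose by 1.91.

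Cell cycle genes were lower for 16 of 26 tested and higher for 7 (median -1.07, beyond EG against ESC -0.77). The shares were 61.5% lower and 26.9% higher, beside 35.4% and 43.3% over all genes tested. Birc5, the chromosomal passenger protein survivin, measured 6.29, 6.19, 7.06 and 7.10 in hiEGL against 10.44 and 10.84 in EpiSC (15.8-fold lower, adjusted p = 1.01e-10, limma), and Cdk2 was 4.71-fold lower. The cell cycle inhibitor Cdkn1a, known as p21, was higher, at 10.78, 10.87, 10.82 and 10.74 against 9.08 and 8.74 (3.72-fold). All 3 genes had agreeing probes and kept their direction beyond EG against ESC.

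Of DNA methylation and chromatin genes 20 of 25 were tested, with 6 higher and 11 lower (median -0.40). The shares were 30% and 55%, beside 43.3% and 35.4% over all genes tested. Uhrf1, which brings maintenance methylation to replicated DNA, was at 7.94 and 8.08 in hiEGL1 and 9.25 and 9.17 in hiEGL2, against 11.72 and 11.61 in EpiSC (log2 -3.05, beyond EG against ESC -3.25, adjusted p = 7.81e-08, limma). Dnmt3l, the cofactor of the de novo enzymes, was undetected in hiEGL1 at 4.46 and 4.50 but at 6.90 and 6.70 in hiEGL2, against 7.09 and 5.87. The hiEGL2 arrays thus lay between the EpiSC arrays for Dnmt3l, and its log2 difference of -0.84 was -0.23 and no longer called without EpiT9. Dnmt1, the maintenance enzyme, was 2.02-fold higher, with 0.09 beyond EG against ESC. Ezh2, the Polycomb methyltransferase, averaged 4.53 ± 0.14 in hiEGL (SD, n = 4) and 10.29 ± 0.41 in EpiSC (SD, n = 2), at least 20.4-fold lower by probes that agreed, and differed by -0.16 beyond EG against ESC (adjusted p = 0.399, limma).

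Of 16 imprinted genes tested, 9 were higher and 5 lower (median 1.14, beyond EG against ESC 1.49), beside 43.3% higher and 35.4% lower over all genes tested. The paternally expressed growth genes were the brightest changes: Dlk1 was at 11.93, 11.66, 12.45 and 12.49 in hiEGL against 6.39 and 5.35 in EpiSC (76.8-fold, adjusted p = 6.03e-07, limma). Igf2 was at 14.11, 14.20, 14.17 and 14.18 against 11.01 in EpiT9 and 8.02 in EpiE3, a log2 difference of 4.65 that was 3.16 without EpiE3 and 6.14 without EpiT9. Igf2r, the maternally expressed receptor that clears Igf2, was 18.9-fold higher by probes that agreed, and Cdkn1c, a maternally expressed cell cycle inhibitor, 13.3-fold higher. Mest overlapped between groups, at 9.74, 9.80, 10.50 and 10.66 against 10.17 and 7.89, and its difference of 1.14 was 0.00 without EpiE3. Snrpn fell by 1.07.

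Most tested mesenchymal genes were higher in hiEGL and tested epithelial genes divided. Mesenchymal shares were 69.2% higher and 0% lower and epithelial shares 33.3% and 60%, beside 43.3% and 35.4% over all genes tested. Of 13 mesenchymal genes tested 9 were higher and 4 not called (median 1.89, with 1 gene lower without EpiE3), and of 15 epithelial genes 5 were higher and 9 lower (median -0.64, but 0.77 beyond EG against ESC). Mmp2, a gelatinase, was at 13.74, 13.72, 13.57 and 13.57 in hiEGL against 9.52 and 8.10 in EpiSC (log2 4.84, 4.13 without EpiE3). Twist2, a mesenchymal transcription factor, was at least 7.74-fold higher. Cdh1, E-cadherin, was at 8.45, 8.41, 8.48 and 8.12, between EpiT9 at 7.01 and EpiE3 at 9.05 (adjusted p = 0.307, limma), and was called higher, by 1.36, without EpiE3. Vim, the mesenchymal intermediate filament, differed by -0.35 (adjusted p = 0.396, limma) and was called lower, at -1.51, without EpiE3.

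Many tested markers of other cells that a culture could hold differed between these groups. Of 25 fibroblast and mesenchyme markers tested of 28 listed, 22 were higher and 1 lower, with a median of 3.49, the highest of the 27 lists, and 2.45 beyond EG against ESC. The shares of these markers were 88% higher and 4% lower, beside 43.3% and 35.4% over all genes tested. Their mean level was between 9.35 and 9.60 on the hiEGL arrays, which detected 23 or 24 of them, against 6.42 in EpiT9 with 15 detected and 5.94 in EpiE3 with 12 detected. On the EG arrays it was 7.37 and 7.42. Pdgfra, a receptor of fibroblast-like cells, measured 11.37, 11.47, 11.45 and 11.47 in hiEGL against 5.52 and 4.50 in EpiSC (86.0-fold, adjusted p = 1.69e-09, limma). Mmp3, a stromelysin, was at least 15.4-fold higher by probes that agreed, and Timp2 53.8-fold higher. The fibroblast collagen Col1a1 was low in both groups, at 6.94, 7.05, 6.22 and 6.39 against 5.64 and 4.65, and was not called (adjusted p = 0.0862, limma). In bulk samples fewer cells of a type and less RNA per cell cannot be told apart, and the part of such cells in any rise given here, the matrix and HIF target rises included, was not tested.

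The other marker lists were dimmer. Of 20 gonadal somatic markers 6 were tested and 5 were higher, with a mean level of 7.52 to 8.08 in hiEGL against 5.35 and 5.02 in EpiSC, and Wt1, of the coelomic epithelium and gonad, 12.5-fold higher. That mean includes Pdgfra, also on the fibroblast list. Nr5a1, Amh, Foxl2, Lhx9, Star, Inha and Gata4 were among the gonadal markers that did not pass the detection filter. Of 20 blood, endothelial and macrophage markers 10 were tested and 8 were higher, at a mean of 6.90 to 6.95 with 8 detected on each hiEGL array against 4.79 with 2 detected and 4.62 with 1 detected. Cd34, of blood progenitors and endothelium, was at 7.64, 7.50, 7.58 and 7.74 against 4.52 and 4.64, and the macrophage lysozyme Lyz2 at 8.37, 8.26, 7.86 and 7.59 against 4.23 and 4.26. Hba-a1 and Vwf were not called. Ptprc, Adgre1, Itgam, Tyrobp, Fcer1g, Gata1 and Tie1 of this list did not pass the detection filter, and its mean includes Pecam1, also on the naive list. Primitive endoderm and trophectoderm genes, 21 tested, were higher for 14 and lower for 4 (median 1.75), among them the endocytic adaptor Dab2, 9.82-fold higher by probes that agreed. Neural and neural crest genes were higher for 3 and lower for 2 of 6 tested. Ednrb, the endothelin receptor of neural crest, was higher, at 10.58, 10.61, 10.61 and 10.54 against 7.28 and 4.37. Nes was lower, with a log2 difference between -4.28 and -1.30 over the main fit and the alternatives. Mesoderm and definitive endoderm genes were higher for 3 and lower for 4 of 10 tested, with a median of -0.03 that was 0.25 under median scaling.

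**Figure D5:**
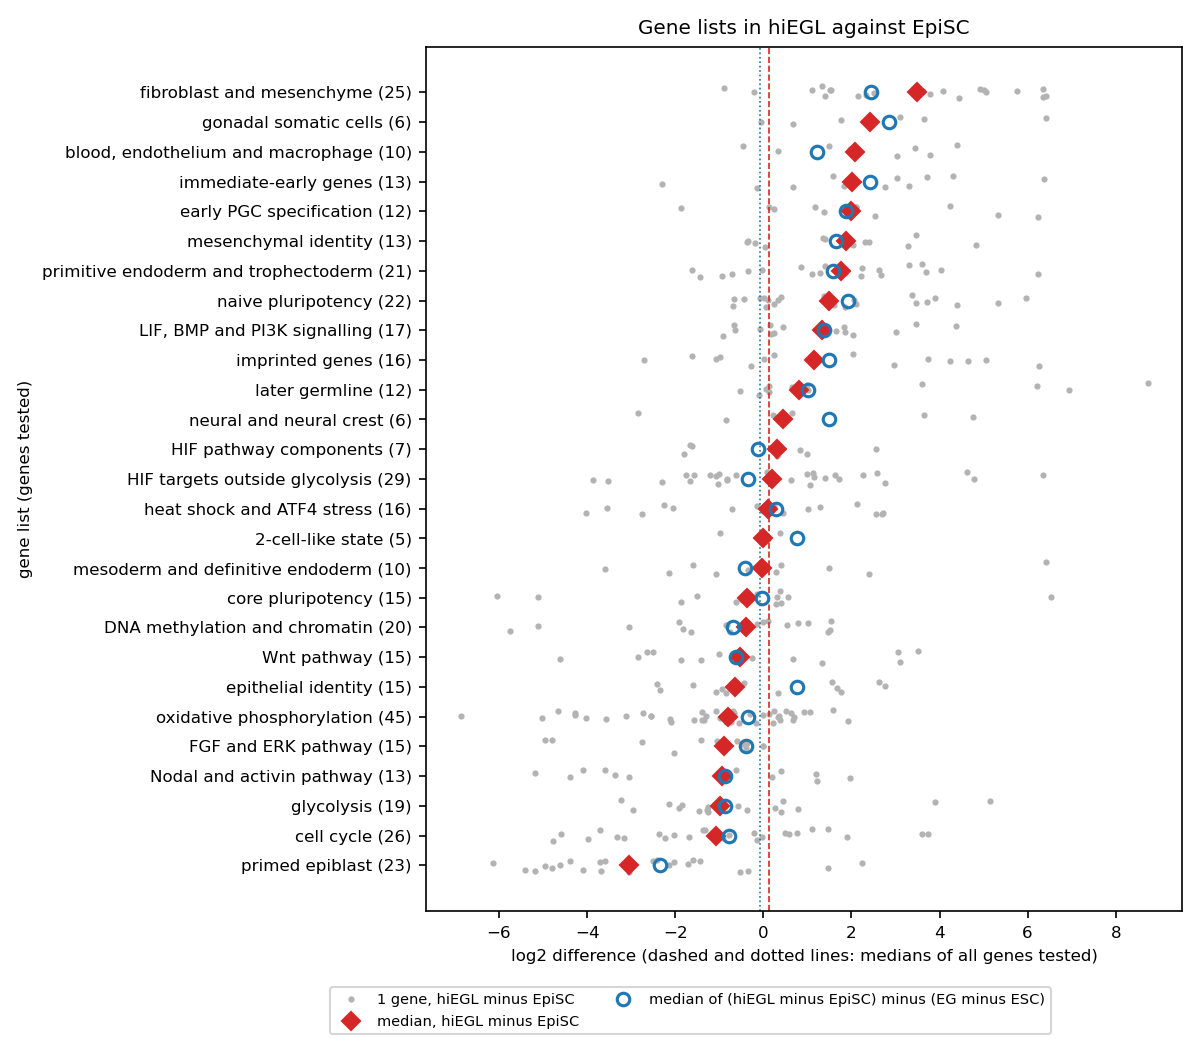
Log2 difference of hiEGL minus EpiSC (x axis) for each tested gene (grey points) of 27 lists (rows), with each list's median (filled diamonds) and its median beyond EG against ESC (open circles). The primed epiblast list has the lowest median, -3.04, and the fibroblast and mesenchyme list the highest, 3.49.

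Immediate-early genes, which respond fast to growth factors and to handling, were higher for 10 of 13 tested and lower for 1 (median 2.02, beyond EG against ESC 2.42). The shares were 76.9% and 7.69%, beside 43.3% and 35.4% over all genes tested. Ier3 was at 13.92, 13.80, 14.21 and 14.27 in hiEGL against 7.61 and 7.77 in EpiSC (82.1-fold, adjusted p = 2e-09, limma). Jun and Fosb, subunits of AP-1, were 13-fold and 19.6-fold higher, with both hiEGL2 arrays above both hiEGL1 arrays. Fos, the partner of Jun, was not called, at 9.81, 9.85, 11.05 and 11.14 against 10.48 and 9.09. Egr1 was 4.06-fold higher, a call lost when either EpiSC array was left out (adjusted p = 0.0676 and 0.0514, limma).

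Heat shock and ATF4 stress genes were higher for 8 (50%) and lower for 6 (37.5%) of 16 tested. These shares lie near those over all genes tested, 43.3% and 35.4%. The median was 0.12, and it was -0.17 under median scaling and -1.25 with a gene's probes averaged. Chac1, a glutathione-degrading target of ATF4, was at 9.33 and 9.40 in hiEGL1 and lower still, at 5.68 and 5.99, in hiEGL2, against 10.64 and 11.66 (log2 -3.55, adjusted p = 2.9e-09, limma). Atf4 was undetected on the hiEGL arrays, at 4.50, 4.36, 4.41 and 4.41, and uneven in EpiSC, at 6.58 in EpiT9 and 10.30 in EpiE3. It was at least 5.65-fold lower, differed by -2.16 on the log2 scale without EpiE3, and had the opposite sign, 1.28, beyond EG against ESC. Ddit3, the stress factor CHOP, was 6.55-fold higher by probes that agreed.

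Genes of LIF, BMP and PI3K signalling were higher for 10 and lower for 3 of 17 tested (median 1.33, beyond EG against ESC 1.39). The shares were 58.8% and 17.6%, beside 43.3% and 35.4% over all genes tested. Bmp4, the ligand that induces germ cells and sustains naive cells, measured 9.84, 9.83, 9.35 and 9.22 in hiEGL against 5.71 and 4.68 in EpiSC (20.7-fold, adjusted p = 1.48e-10, limma). Socs3, the feedback target of Stat3, was at 10.30 and 10.32 in hiEGL1 and 11.57 and 11.50 in hiEGL2, against 7.65 and 7.26 (11-fold), while Stat3 itself fell. Of 2-cell-like genes 5 of 10 were tested, with 1 higher and 1 lower, and the higher call, in Gm428, was lost without any 1 of the 6 arrays.

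Fewer genes were called between the hiEGL lines than between either line and EpiSC. Taken alone, hiEGL1 had 6908 called genes against EpiSC (76.3%; 42.6% higher and 33.7% lower) and hiEGL2 had 6861 (75.8%; 41.1% higher and 34.6% lower). Between hiEGL2 and hiEGL1 2713 genes were called (30.0%), and between EpiE3 and EpiT9 980 (10.8%; 5.68% higher and 5.15% lower). The last contrast had 1 array a line and took its spread from the other groups. Primed epiblast genes were lower for 21 of 23 in hiEGL1 and for 19 of 23 in hiEGL2, and naive genes higher for 14 of 22 in each. Among early germ cell genes hiEGL2 was higher than hiEGL1 for 1 and lower for 4, among core pluripotency genes lower for 5 of 15 with the rest not called, and among Wnt genes higher for 7 and lower for 1.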

How the data were processed

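RNA of 14 mouse samples in 8 groups was labelled and hybridised to Illumina bead arrays. Per the labels' protocols, total RNA was amplified with an Illumina kit, and a second linear amplification with another transcription time is described for the same samples, so which array had which is not known here. The authors deposited summarised probe intensities that were not normalized, with a detection p-value per probe and array from the scanner software, per the file headers. The authors also deposited a table of log2 values, whose columns share a median of 3.02. The submitters' processing notes name BeadStudio 3.2, RMA and lumi, with no order, and the centring of that table is not given in the sources used here.

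Intensities were background-corrected with limma's nec from the detection p-values with an offset of 16, quantile-normalized and log2-transformed (R 4.3.3, limma 3.58.1, Python 3.11.15). Of 25697 probes, 23978 name 1 gene and 1719 none in the platform annotation, giving 16593 genes. Each gene was read by its brightest probe, and 9054 genes with a detection p under 0.01 on at least 2 of the 14 arrays were tested, with 12404 probes in a separate fit by probe. A limma model with 8 group means over all 14 arrays (6 residual degrees of freedom, trended variance) gave each contrast, with Benjamini-Hochberg adjustment over all genes and a threshold of 0.05. The fit was tested on simulated data. Groups and replicate numbers came from the sample titles.

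Named genes were the 10 largest rises and falls among genes whose probes agree, whose arrays do not overlap and whose call is shared beyond EG against ESC, 50 fixed genes, and up to 4 genes of each of the 27 lists, 148 in all, and 34 further list genes were picked with their values in view. The members and lists were chosen with earlier results of these data known. The alternatives tried were the authors' table, no background correction, median scaling, other detection filters, averaged probes, fewer arrays in the fit, line means as replicates, a replicate block, a minimum fold, and fits that drop 1 array in turn. Promoter sequences and their coordinates are RefSeq's (GRCm38.p6). Same-numbered arrays of the hiEGL lines did not deviate together, so replicate numbers were not used as pairs.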

Additional observations from a re-analysis of the deposited data

Results flagged for a closer look

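Some genes named above differed between the hiEGL lines by at least 2-fold with an adjusted p under 0.05 in limma, so that each line had its own distance from EpiSC. The tests are of hiEGL2 minus hiEGL1 on the log2 scale, and the cause of no difference was tested. Among oxygen and glycolysis genes, hiEGL2 was higher for Car9 by 1.31, Ldha by 1.23, Pdk1 by 1.48 and Eno2 by 1.08, which took Car9 and Eno2 farther from EpiSC and brought Ldha and Pdk1 nearer to it. Among naive and germ cell genes, hiEGL2 was higher for Klf4 by 1.23 (brightest probe), Socs3 by 1.22 and Dppa3 by 1.03, and Nanos3 and Lin28a differed by -2.02 and -2.07. Lox, of the HIF targets, was higher in hiEGL2 by 1.98, and the germ cell gene Ifitm3 and the ATF4 target Chac1 differed by -1.26 and -3.53. Pou3f1, of the primed list, differed by -1.68. The DNA methylation genes Dnmt3l and Uhrf1 were higher in hiEGL2 by 2.32 and 1.20, and the imprinted Snrpn differed by -1.06. The epithelial regulator Ovol1 and the leukocyte gene Laptm5 both differed by -1.22.

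In a pair of genes 1 hiEGL array stood apart from the other 3. The gap of that array, as a share of the range over the 4 hiEGL arrays, was 0.912 for Olig1 and 0.834 for Gsc. Chance flags about 1 in 20 groups of 4 independent arrays in this way, a rate that need not hold for 2 arrays of each of 2 lines. Neither probe was detected on any hiEGL array.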

How the results depend on the processing

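Of 182 named genes 167 were called, 138 of them in the same direction under all 16 alternatives, and 6 took the opposite sign under at least 1. Averaging a gene's probes gave -1.11 for Sall4 and -0.014 for Ccnd1, and 174 called genes were called the other way. Median scaling gave 0.25 for Zfp42. Without EpiE3 or without EpiT9, Tdgf1 differed by 0.047 and -1.29, Olig1 by 0.071 and -1.77, and Dusp4 by -0.81 and 0.058. The count for hiEGL against EpiSC was 4692 with a 2-fold threshold, 5262 with line means as replicates (5224 of the main calls kept) and 6625 to 6888 with 1 array left out. At a 2-fold threshold the other counts were 659 for hiEGL2 against hiEGL1, 427 for EpiE3 against EpiT9, 3490 for hiEGL against EpiSC beyond EG against ESC, 710 genes for probe agreement in hiEGL against EpiSC and 223 for probe disagreement in hiEGL against EpiSC. With only the compared arrays in the fit, 4423 genes were called for hiEGL2 against hiEGL1 and 2521 for EpiE3 against EpiT9. With 1 array left out, hiEGL2 against hiEGL1 gave 1634 to 2719. Median scaling moved the share of higher calls for hiEGL2 against EpiSC to 64.3% (54.3% with quantiles), for hiEGL2 against hiEGL1 to 63.1% (46.6%) and beyond EG against ESC to 57.8% (45.6%). With the replicate number as a block, 7106 genes were called for hiEGL against EpiSC, 6894 for hiEGL1 against EpiSC, 6850 for hiEGL2 against EpiSC, 2611 between the hiEGL lines, 873 between the EpiSC lines and 5558 beyond EG against ESC, so the block moved no count by 1.5 times.

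Each EpiSC line has 1 array, so its spread is assumed to be that of the other groups, and p-values over arrays do not measure the spread between lines. Signal near background limits the dim genes: 132 called genes were detected on no hiEGL or EpiSC array, and folds given as at least a value are lower limits. The division between arrays in detected probes lies along the same line as hiEGL against EpiSC, and its part was not tested. The cause of the changes given here was not tested.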
